A study of Mus musculus with 14 samples.

Results

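The transcripts described here were the annotated retained-intron isoforms of the mouse testis, measured in total testis RNA and in RNA pulled down with tagged ribosomes of germ cells. An isoform was included when GENCODE release M21 gives its transcript type as retained_intron and its expected count (the number of reads that the quantifier assigned to it) was 10 or more in each of the 3 wild-type input libraries. That left 4663 isoforms of 20158 annotated as retained_intron and of 182829 entries in the tables. They belonged to 3180 gene symbols, of which 960 had more than 1 such isoform (up to 9, in Ankrd17, an ankyrin repeat gene), and 4579 had a protein-coding transcript of the same gene to compare with. Because wild-type input chose the isoforms, their values against wild-type input are given below as a description, and these isoforms were tested only in the mutants and between IP libraries.

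All mice were C57BL/6 males aged 21 days, heterozygous for Stra8-iCre and for Rpl22-HA, so that Stra8-iCre, a recombinase expressed from spermatogonia on, places an HA epitope on the ribosomal protein RPL22 of germ cells. The wild-type group was Adad2+/+ (3 animals, numbered 121, 140 and 17) and the mutant group was Adad2M/M (4 animals, numbered 12, 69, 93 and 94), Adad2 being a germ cell gene for an adenosine deaminase domain-containing RNA-binding protein. From each animal 1 input library (RNA of the whole testis lysate) and 1 IP library (RNA recovered with anti-HA) were sequenced. No mice without the Cre or the tag are among the 14 libraries analysed here, so RNA that binds the beads without a tagged ribosome was not measured, and in lysates of whole testis fewer cells of a type and less RNA per cell cannot be told apart.

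A retained intron is one that splicing left in an otherwise processed RNA. Such RNAs are often held in the nucleus, and those that reach the cytoplasm commonly meet a stop codon inside the intron and become targets of nonsense-mediated decay. In the testis, meiotic and postmeiotic germ cells are known for long-lived intron-containing transcripts that are spliced and used later. An annotated retained-intron isoform need not be a whole transcript that keeps 1 intron: many entries are partial models that begin or end inside an intron.

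Of the 4580 isoforms whose exons could be set against coding transcripts of the same gene, 1646 (35.9%) held at least 1 whole intron inside an exon, 2885 (63.0%) only began or ended inside an intron, and 49 did neither. The 3′ end lay inside an intron in 59.5% and the 5′ end in 38.86%. The isoforms differed widely in how much of them was intron: 1095 were under 25% intronic, 1052 were 25 to 50%, 1035 were 50 to 75% and 1398 (30.5%) were over 75%. Among the 15196 other annotated retained-intron transcripts, 12.5% were over 75% intronic.

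The isoforms held 2820 whole introns, an intron kept by several isoforms being counted for each of them (2711 distinct introns), with a median length of 518 bases against 194 bases in the other retained_intron transcripts. The intron began with GT and ended with AG in 97.8% and began with AT and ended with AC, the rare end pair of some introns of the minor spliceosome, in 6, which are 4 distinct introns. Of the 2534 introns between coding exons, 93.9% held a stop codon in the reading frame of the upstream exon. Examples follow, taken from the GENCODE M21 transcripts on GRCm38 and written 5′ to 3′ on the strand of the gene, chosen because their isoforms carry the results below. Of 2 short introns the whole sequence is shown, intron in capitals with 10 bases of each flanking exon in lower case. The Calr intron (intron 4 of 8, 87 bases) and the Taf1d intron (122 bases) hold an in-frame stop codon.
Calr, chr8:84844774-84844880, minus strand: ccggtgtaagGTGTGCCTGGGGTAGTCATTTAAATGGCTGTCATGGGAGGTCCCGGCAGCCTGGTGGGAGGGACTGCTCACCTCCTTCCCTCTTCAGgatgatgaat
Taf1d, chr9:15311686-15311827, plus strand: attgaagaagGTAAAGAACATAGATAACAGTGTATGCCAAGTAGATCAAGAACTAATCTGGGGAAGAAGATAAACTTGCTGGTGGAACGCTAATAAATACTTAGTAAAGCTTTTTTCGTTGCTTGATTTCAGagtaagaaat

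For longer introns the start (donor) and the end (acceptor) are shown with the first 2 and the last 2 intron bases in capitals. The first 4 pairs belong to GT-AG introns of isoforms followed below, and the last pair to the AT-AC intron that 3 isoforms of Tcea2 keep.
Ncl, intron 9 of 13, donor chr1:86353117-86353128, minus strand: gtgGTaagttaa
Ncl, the same intron, acceptor chr1:86352631-86352653: tgttatctttgtatttgcAGgtg
Ilf2, intron 7 of 13, donor chr3:90482840-90482851, plus strand: aagGTttgaatt
Ilf2, the same intron, acceptor chr3:90484434-90484456: tgattattttgttcttttAGttt
Smarcb1, intron 6 of 8, donor chr10:75906021-75906032, minus strand: aagGTaggtgcc
Smarcb1, the same intron, acceptor chr10:75904572-75904594: tttcttggcccctgctgcAGctg
Srsf5, intron 5 of 7, donor chr12:80947863-80947874, plus strand: cagGTttgttga
Srsf5, the same intron, acceptor chr12:80949075-80949097: cataattgtcttgtgttaAGgat
Tcea2, intron 6 of 9, donor chr2:181686244-181686255, plus strand: agtATatccttt
Tcea2, the same intron, acceptor chr2:181686578-181686600: gggtccttaaacacctgcACgca

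The libraries held 22832564 to 30241725 expected counts each, and the isoforms took 1.69 to 2.30% of them. Detection differed between libraries far more than depth. All 4663 isoforms were above 0 in wild-type input by construction, and 3028 to 3808 were above 0 in the wild-type IP libraries. In mutant input 2404 were above 0 in animal 12, 1983 in animal 69, 3950 in animal 93 and 4555 in animal 94, and in the mutant IP libraries 1139 to 1754 were. At 0 in all 4 mutant IP libraries were 1683 isoforms, and 257 were above 0 in all 14 libraries. Coding transcripts of similar level fell out too: among entries with a mean of 50 to 100 counts in wild-type input, 23.6 to 38.6% of isoforms and 31.6 to 45.9% of single protein-coding transcripts were above 0 in mutant IP. An exact 0 in these estimates can be a failed split of reads between isoforms, so an isoform at 0 is described only as listed at 0. Adad2 itself was at 11.8 to 11.9 TPM (a level scaled for transcript length and for the depth of the library) in wild-type input and 68.9 to 76.2 TPM in wild-type IP, against 1.92 to 4.06 TPM and 4.30 to 8.35 TPM in the mutants.

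**Figure D1:**
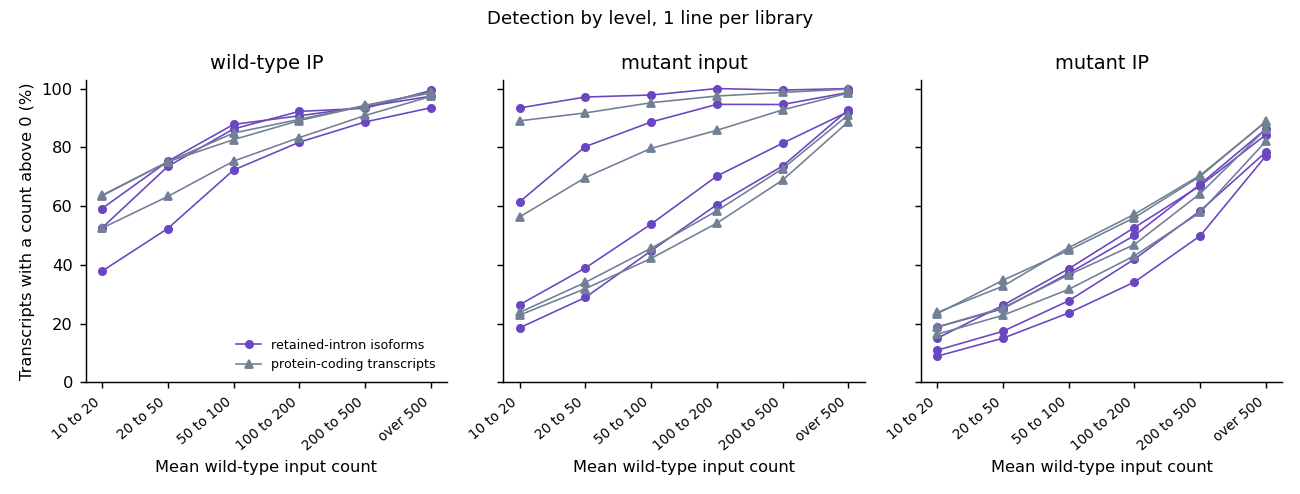
Percentage of transcripts with a count above 0 (y axis) by their mean wild-type input count (x axis), 1 line per library, for retained-intron isoforms (circles) and single protein-coding transcripts that passed the same threshold (triangles). In mutant IP both kinds are detected less often than in wild-type IP at each level drawn, and above 500 counts 77.1 to 86.3% of isoforms are above 0 there.

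In summed TPM, the mostly intronic isoforms took a much smaller share of their genes' RNA in IP than in input, in both genotypes. The mostly exonic ones did not in these sums, although their medians per isoform, given below, were below 0. The share is the TPM of the retained-intron isoforms as a percentage of the TPM of these isoforms plus the coding transcripts of their genes. For the 1398 isoforms over 75% intronic it was 4.73, 4.24 and 3.50% in the input of wild-type animals 121, 140 and 17 and 0.859, 0.718 and 0.925% in their IP. In mutant animals 12, 69, 93 and 94 it was 3.77, 3.07, 4.16 and 5.06% in input and 0.746, 0.647, 0.945 and 0.939% in IP. Every IP library lay below every input library, and the means of IP were 0.833% ± 0.105 (SD, n = 3) in wild type and 0.819% ± 0.146 (SD, n = 4) in mutants, so the genotypes overlapped in IP.

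The next class, 50 to 75% intronic, behaved alike, with 4.73 to 5.91% in wild-type input, 1.51 to 1.73% in wild-type IP, 4.05 to 6.69% in mutant input and 1.57 to 2.18% in mutant IP, again with no overlap between input and IP. Isoforms 25 to 50% intronic were at 10.1 to 12.1% in wild-type input, 12.2 to 14.2% in wild-type IP, 11.5 to 14.1% in mutant input and 15.6 to 17.1% in mutant IP, higher in IP than in input in each of the 7 animals. Isoforms under 25% intronic held 23.0 to 25.4% in wild-type input, 23.6 to 25.7% in wild-type IP, 26.4 to 27.0% in mutant input and 26.15 to 30.01% in mutant IP. These sums are led by the isoforms of highest level.

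**Figure D2:**
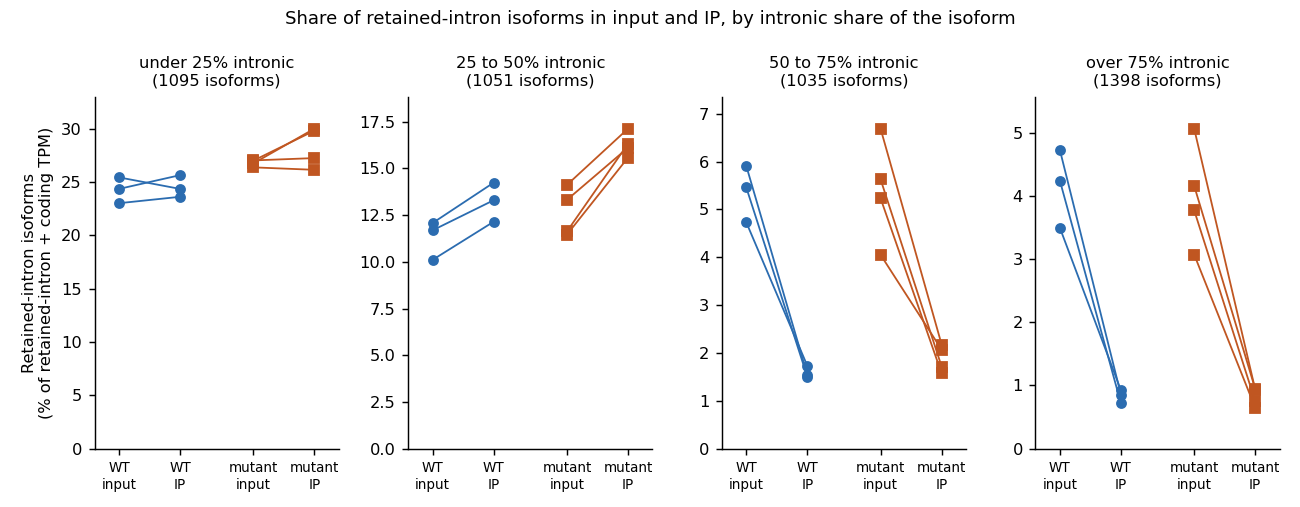
Share of retained-intron isoforms in the summed TPM of these isoforms and the coding transcripts of their genes (y axis, %), in input and IP, for 4 classes of isoform by intronic percentage. Lines join the libraries of 1 animal (circles wild type, squares mutant). In the classes over 50% intronic all 7 lines fall from input to IP, to 0.647 to 2.18%. In the 25 to 50% class all 7 rise, in sums led by the isoforms of highest level. In each animal 67.2 to 81.8% of the isoforms of that class have a lower IP/input than their coding sums.

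Markers of cell types without the tag were at lower summed levels in IP than in input, as were the mostly intronic isoforms. The summed level of 10 Sertoli cell markers was 879 to 971 CPM (counts scaled to equal library totals) in wild-type input, 228 to 367 in wild-type IP, 1018 to 1396 in mutant input and 158 to 276 in mutant IP, with Fshr listed at 0 in wild-type input and in mutant IP. Of 6 Leydig cell markers the sums were 195 to 284, 26.4 to 61.0, 226 to 411 and 2.73 to 38.8 CPM, and of 5 macrophage markers 68.7 to 87.5, 5.38 to 13.5, 96.8 to 126 and 0 to 6.63 CPM, with Cd68, Mrc1 and Cd163 listed at 0 in mutant IP. Early meiotic markers (6 genes) were higher in IP, at 1413 to 1481 and 3735 to 4336 CPM in wild type and at 1490 to 1763 and 3703 to 4274 CPM in mutants. So were the sums of 6 spermatogonia markers, at 374 to 392 and 508 to 599 CPM in wild type and 247 to 338 and 497 to 716 CPM in mutants, and of 7 late pachytene markers, at 3534 to 3982 and 5958 to 6973 CPM and at 2417 to 3216 and 3992 to 4148 CPM. Round spermatid markers (7 genes) went the other way, with 259 to 311 and 201 to 213 CPM in wild type and 146 to 168 and 91.4 to 133 CPM in mutants, and Gapdhs, Tnp1 and Prm1 were listed at 0 in mutant IP. Gene by gene, 2 of the 7 late pachytene markers were called higher and 3 lower in mutant IP than in mutant input by edgeR. Their median log2 fold change was -1.065, unlike the direction of their sum. The part of these cell types in the isoform shares was not tested.

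Per isoform, the measure was the log2 ratio of IP to input TPM of the isoform minus that of its gene's coding sum, after adding 0.1 TPM. Over all 4579 isoforms its median was -1.86, -2.01 and -1.53 in wild-type animals 121, 140 and 17. It was -1.83, -1.31, -2.02 and -2.49 in mutant animals 12, 69, 93 and 94. Many of these isoforms are listed at 0 in IP, and only 51.5% and 42.5% were above 0 in the input of animals 12 and 69. For an isoform at 0 in both fractions the measure is only the ratio of its coding sum with the sign reversed. Restricted to isoforms and coding sums with 10 or more counts in every library of the genotype, which keeps fewer isoforms that are low in IP, the medians moved to -1.01, -0.78 and -0.68 in wild type (1504 isoforms) and to -0.01, -0.19, 0.17 and 0.28 in mutants (174 isoforms). Within these 174, the 20 isoforms over 75% intronic had medians of -1.96, -1.70, -1.82 and -2.61 in the 4 mutants, and the 105 under 25% intronic had 0.51, 0.11, 0.33 and 0.56.

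Isoforms measured in all 14 libraries showed a similar order in both genotypes. Of 167 isoforms with 10 or more counts in every library for themselves and for their coding sum, 128 had mean differences of the same sign in wild type and mutant. Pearson's r between the genotypes was 0.84 and Spearman's rho 0.80 over these isoforms, which share libraries and read assignment. In 19 of the 30 isoforms over 50% intronic the difference was below 0 in all 7 animals and in 1 it was above 0 in all 7. Of the 137 others, 13 were below 0 in all 7 animals and 34 above. The difference also went with transcript length (r -0.50 in wild type and -0.45 in mutants) about as with intronic percentage (r -0.51 and -0.39). By rank, rho was -0.35 and -0.36 for length and -0.34 and -0.24 for intronic percentage. It went with level as well (log2 mean wild-type input count, r -0.35 and -0.30, rho -0.35 and -0.29). The length of the longest open reading frame hardly went with it (r 0.04 and 0.04). The part of each of these traits was not tested.

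**Figure D3:**
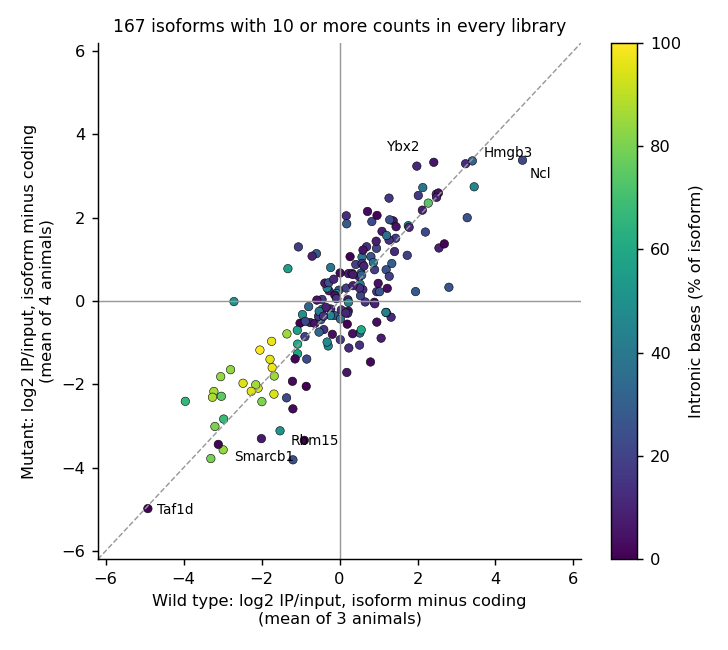
Mean log2 IP/input of each isoform minus that of its gene's coding sum, in wild type (x axis, 3 animals) and in mutants (y axis, 4 animals), for the 167 isoforms with 10 or more counts in every library. Colour gives the intronic percentage, the dashed line marks equal values, and r is 0.84 across isoforms. Taf1d and Smarcb1 lie low in both genotypes and Ncl and Hmgb3 high in both.

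The question of whether single isoforms differed from their genes' coding transcripts in ribosome association was tested in the mutants, with IP and input of the same animal as a pair. With the usual filter on low counts, edgeR's quasi-likelihood test with Benjamini-Hochberg adjustment called 0 of 2214 isoforms, and 0 of all 6149 pairs of a non-coding isoform and its coding sum (0.0% called). Without adjustment, 23 isoforms (1.04%, against 3.71% of all pairs) were higher in IP and 244 (11.02%, against 6.51%) were lower at p under 0.05. DESeq2 placed 89 isoforms (4.02%, against 9.81% of all pairs) above and 600 (27.1%, against 16.3%) below their coding sums past the threshold. Pairs with counts of 0 in single mutant libraries were part of that fit. Isoforms at 0 in all 4 mutant IP libraries, such as those of Luc7l2, Klc2 and Ssh2, passed the filter through input alone. The isoforms were also chosen by their counts in wild-type input, unlike the other pairs. The excess of lower isoforms over all pairs cannot be told apart from these choices. On pairs with 10 or more counts in every mutant library, edgeR called 19 of 174 isoforms higher (10.9%, against 11.5% of all 443 such pairs) and 17 lower (9.77%, against 5.64% of all pairs).

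The called isoforms divided by how intronic they were. Of the 20 isoforms over 75% intronic 10 fell and 0 rose, and of 12 isoforms 50 to 75% intronic 2 fell and 0 rose. Of 37 isoforms 25 to 50% intronic 6 rose and 0 fell, and of 105 under 25% intronic 13 rose and 5 fell. Over all 443 pairs 11.5% rose and 5.64% fell. The median fitted log2 difference was -2.06, -0.98, 0.56 and 0.45 in these 4 classes, and 0.53 over all 443 pairs.

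All 36 calls kept their sign when each animal was left out, but the number still called fell to 29 without animal 12, 21 without animal 69, 16 without animal 93 and 9 without animal 94. Called in each of these 4 runs were 7 isoforms, of Fyttd1, Ilf2, Ncl, Smarcb1, Taf1d, Tmed10 and Ybx2. Animals 12 and 69 had the inputs of low detection. Without both, 674 isoforms could be tested, of which 56 rose (8.31%, against 12.5% of all 1761 pairs) and 59 fell (8.75%, against 5.91%). Of the 140 over 75% intronic 29 fell (20.7%) and 2 rose, and of the 275 under 25% intronic 11 fell (4.00%) and 33 rose.

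Among the isoforms that fell was that of Ilf2, a partner of double-stranded RNA-binding proteins, 79.1% intronic (transcript ENSMUST00000198325). It took 16.5, 7.82, 17.0 and 8.60% of isoform plus coding TPM in the input of mutant animals 12, 69, 93 and 94 and 1.02, 0.347, 1.38 and 1.41% in IP. Input and IP did not overlap, and the log2 difference was -3.87 (SE 0.64, adjusted p = 0.0032 by edgeR's quasi-likelihood test). In wild type the shares were 6.68 to 9.15% in input and 0.637 to 1.22% in IP.

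Smarcb1 encodes a core subunit of SWI/SNF chromatin remodellers, and its isoform (ENSMUST00000140408, 83.9% intronic) holds 2 whole introns. The share in mutants was 6.83, 2.15, 5.99 and 6.23% in input and 0.472, 0.564, 0.113 and 0.512% in IP, a log2 difference of -3.81 (SE 0.76, adjusted p = 0.011, edgeR). Every IP value lay below every input value, as in wild type, where input held 3.29 to 5.90% and IP 0.404 to 0.656%.

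The largest fall among the 36 was in Taf1d, a subunit of the RNA polymerase I selectivity factor. Its isoform (ENSMUST00000213235) keeps the 122-base intron printed above, which another coding transcript of the gene treats as exon, so that only 0.430% of it counts as intronic here. The share was 50.5, 58.3, 48.8 and 37.8% in mutant input and 1.49, 2.13, 2.90 and 6.68% in mutant IP, with no overlap, and 50.5 to 74.9% and 3.72 to 5.29% in wild type. The log2 difference in mutants was -4.96 (SE 0.73, adjusted p = 0.0013, edgeR).

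The other isoforms that fell included those of Rbm15, an RNA-binding component of the m6A methylation complex (-3.19), Hnrnpa2b1, a splicing and transport factor (-2.29), Psmc2, a proteasome ATPase (-2.12), and Pfkp, a phosphofructokinase (-2.96). They also included the barely intronic isoforms of Actr3 (-3.23), a subunit of the Arp2/3 actin nucleator, and Tmed10 (-3.11), a cargo receptor of the early secretory pathway. The isoform of Ube2m (-3.21), a NEDD8-conjugating enzyme, fell too and was 0% intronic against the coding transcripts of its gene. All of these were chosen by their call, after their values were seen.

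Among the isoforms that rose was that of Ncl, which encodes the nucleolar RNA-binding protein nucleolin. The isoform (ENSMUST00000185676, 22.2% intronic, 2 whole introns) took 46.3, 47.4, 18.4 and 23.7% in mutant input and 77.7, 85.7, 89.1 and 80.7% in mutant IP. In wild type it took 8.01, 8.71 and 12.2% in input and 79.7, 75.2 and 72.2% in IP. Input and IP did not overlap in either genotype, and the log2 difference in mutants was 3.67 (SE 0.67, adjusted p = 0.0057, edgeR). All 4 mutant inputs lay above all 3 wild-type inputs. That is a description only, since wild-type input chose the isoforms and this one was picked by its call.

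Ybx2 is a Y-box protein of germ cells that binds and stores mRNA. Its isoform (ENSMUST00000130377, 5.52% intronic, chr11:69939847-69940662 on the plus strand) took 18.5, 28.6, 9.0 and 24.6% in mutant input and 63.7, 68.3, 74.7 and 73.0% in mutant IP, against 19.01 to 27.7% and 52.8 to 66.9% in wild type. Input and IP did not overlap in either genotype, and the mutant difference was 3.25 (SE 0.47, adjusted p = 0.0013, edgeR).

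Fyttd1, an adaptor of mRNA export, and Sub1, a transcription coactivator, rose less. The Fyttd1 isoform ENSMUST00000149183 took 46.6, 78.2, 67.0 and 60.9% in mutant input and 85.8, 87.5, 90.4 and 91.4% in mutant IP, a log2 difference of 2.28 (SE 0.47, adjusted p = 0.011, edgeR). The Sub1 isoform took 51.3, 91.3, 67.7 and 62.2% in input and 80.9, 95.7, 88.2 and 88.8% in IP. Here the input of animal 69 lay above 3 of the 4 IP libraries, and the difference was 2.32 (SE 0.53, adjusted p = 0.016, edgeR). Isoforms of Hmgb3, a chromatin protein (3.58), Mtr, methionine synthase (3.40), Ctsb, a lysosomal protease (3.28), Becn1, an autophagy factor (3.22), Ythdf2, a cytoplasmic m6A reader (2.48), and Ift172, a ciliary transport protein (1.62), were called higher too. The largest rise among the 36 was in Odr4 (3.89), with 3.72, -1.31 and 2.21 in wild-type animals 121, 140 and 17. Not all risers were alike in wild type. Prrc2c (2.23) had a wild-type mean of -1.98, and Rtf2 (2.05) and Atp11a (2.65) had 0.17 and 0.18.

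**Figure D4:**
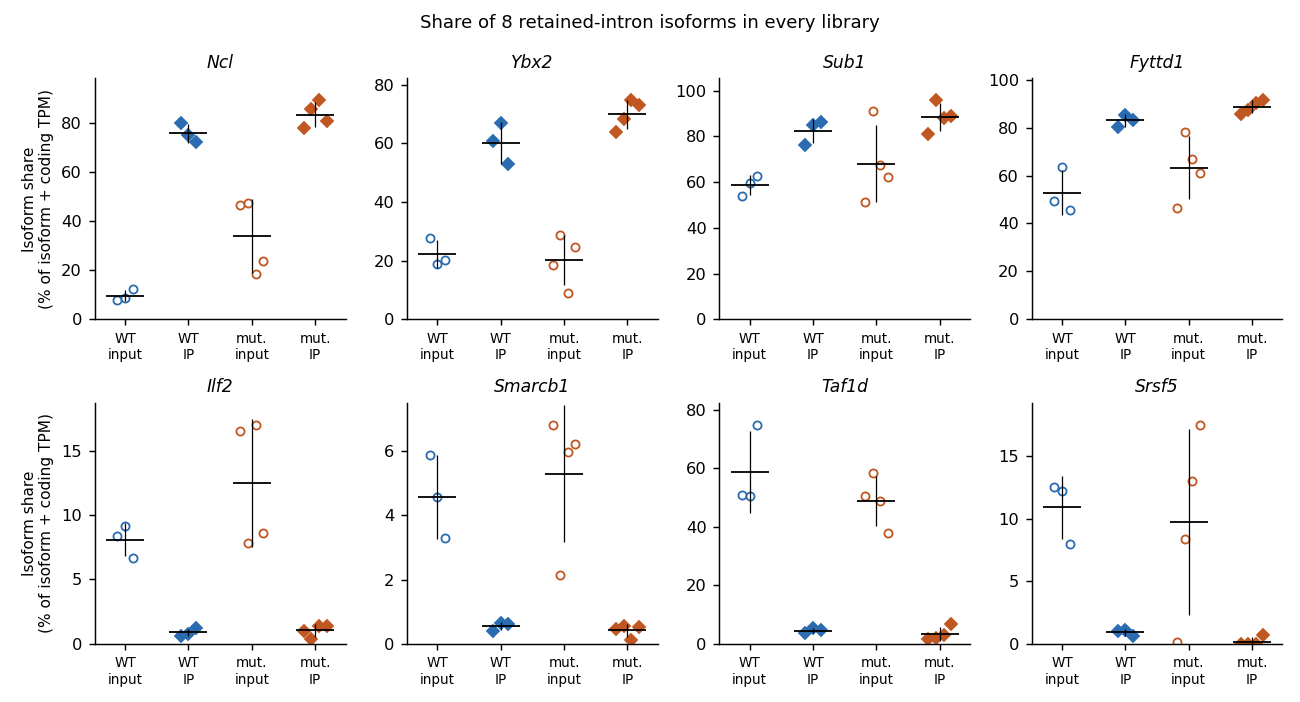
Share of 8 retained-intron isoforms in isoform plus coding TPM of their gene (y axis, %) in every library. Points are libraries (open circles input, diamonds IP), horizontal lines are means and vertical lines 1 SD, cut at 0. Ncl and Ybx2 lie at 52.8 to 89.1% in IP, and Ilf2 and Smarcb1 at or below 1.41%.

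The isoforms were also tested alone, without their coding partners, as single transcripts among all 34124 tested. Of 2353 isoforms 7 were higher in IP than in input of the mutants (1.32% of all transcripts were) and 1 was lower (0.63% of all were), by edgeR's quasi-likelihood test. Higher were Ncl (log2 fold change 3.75), Ybx2 (3.67), Fyttd1 (1.95), Ywhae, a 14-3-3 protein (1.90), Sub1 (1.84), Ppia, cyclophilin A (1.18), and Calr, calreticulin of the endoplasmic reticulum (1.03). Taf1d was lower (-3.36). Before adjustment, p was under 0.05 for 43 isoforms that were higher (1.83%, against 5.44% of all transcripts) and 222 that were lower (9.44%, against 7.92%).

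For 3 of these the difference from the coding transcripts of the gene did not pass the threshold. The Calr isoform, which keeps the 87-base intron printed above, was at 124, 138, 219 and 265 TPM in mutant input and 545, 707, 892 and 863 TPM in mutant IP. Its share of isoform plus coding TPM was 43.5, 43.9, 52.3 and 54.8% in input and 35.6, 44.2, 52.6 and 51.9% in IP, overlapping, with a log2 difference of -0.14 (SE 0.28, adjusted p = 0.72, edgeR) on pairs with 10 or more counts. For Ppia the share was 46.7 to 61.5% in mutant input and 59.8 to 64.7% in IP (difference 0.29, adjusted p = 0.61 by edgeR), and for Ywhae 62.3 to 82.6% and 83.5 to 87.6% (0.81, adjusted p = 0.18 by edgeR). Without each animal in turn 5 of the 8 single-transcript calls held each time, of Fyttd1, Ncl, Ppia, Sub1 and Ywhae, and without both animals 12 and 69 none of the 8 did.

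The isoforms with the highest wild-type input counts, 1 per gene, were those of Calm2, Wnk1, Calr, Rpgrip1, Pou6f1 and Tcp1, at mean counts of 7664 for Calm2 and 4745 for Wnk1. The Calm2 isoform, of a calmodulin gene, took 48.0, 56.1 and 35.4% in wild-type input, 80.4, 84.0 and 73.2% in wild-type IP, 43.0, 47.9, 69.2 and 64.8% in mutant input and 82.1, 100, 91.97 and 89.8% in mutant IP. IP lay above input in each animal. The 100% came from animal 69, in whose IP the coding transcripts of this widely used gene were listed at 0, against 11358 to 21367 counts in the other 3 mutant IP libraries. The Rpgrip1 isoform, of a ciliary scaffold, was lower in IP in wild type, at 54.3 to 62.6% in input and 36.8 to 37.1% in IP. In mutants it was at 44.7, 93.6, 47.7 and 51.8% in input and 41.9, 45.6, 24.3 and 21.0% in IP (difference -1.93, adjusted p = 0.085 by edgeR on pairs with 10 or more counts).

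The Wnk1 isoform ENSMUST00000159903, of a kinase of ion transport, went from 30.4 to 38.4% in wild-type input to 1.23 to 17.8% in IP, and from 22.5 to 52.9% in mutant input to 6.63, 0, 3.10 and 0% in IP. The Pou6f1 isoform, of a POU-domain transcription factor, made up 93.6 to 100% of isoform plus coding TPM in all 14 libraries. The Tcp1 isoform ENSMUST00000151715, of a chaperonin subunit, was at 19.5 to 26.7% in wild-type input, 8.99 to 17.9% in wild-type IP, 18.7 to 24.0% in mutant input and 10.1 to 19.8% in mutant IP (-0.83, adjusted p = 0.084 by edgeR on the same pairs).

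Since no isoform passed the threshold in the fit with the usual filter, the 3 with the smallest p in each direction are given, each at an adjusted p of 0.394 (edgeR). The Fyttd1 isoform ENSMUST00000135854 was listed at 0 in 3 mutant inputs and at 84.1 counts in animal 94, against 2773 to 4094 counts in mutant IP, where it took 77.6 to 83.0%. The isoforms of Slc39a10, a zinc transporter, and Slc35b4, a nucleotide sugar transporter, took 47.0 to 100% and 100% in mutant IP, and 0 to 46.3% and 0 to 87.1% in mutant input. On the low side, the Tcp1 isoform ENSMUST00000138709, the Hnrnpl isoform and the Ythdc1 isoform were each listed at 0 in 3 of 4 mutant IP libraries. Each had 1 library apart, with 1.97% for Tcp1 and 0.962% for Hnrnpl, a splicing factor, in animal 93, and 54.3% for Ythdc1, a nuclear m6A reader, in animal 12. The Fyttd1 isoform passed the filter mainly through IP and these 3 isoforms mainly through input, so their direction was largely set by the filter.

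Of 50 splicing regulator genes 33 held 82 isoforms, of which 50 (61.0%, against 53.1% of all isoforms) were over 50% intronic. They had median log2 differences of -3.19, -3.59 and -2.69 in the 3 wild-type and -3.79, -2.29, -3.35 and -4.06 in the 4 mutant animals, in the order used above, against -1.53 to -2.01 and -1.31 to -2.49 over all isoforms. Only 4 of the 82 had 10 or more counts in every library for themselves and their coding sum. Srsf5, an SR protein, had 12.5, 12.2 and 7.99% of its isoform plus coding TPM in the isoform in wild-type input and 0.998, 1.12 and 0.613% in wild-type IP. In mutants it was 0.148, 8.34, 13.0 and 17.5% in input and listed at 0 in IP except for 0.682% in animal 94. Luc7l2, a U1 snRNP partner, went from 21.8 to 29.5% in wild-type input to 0.509 to 4.21% in IP, and from 9.24 to 32.5% in mutant input to 0 in all 4 mutant IP libraries.

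Rbm25, a splicing activator, had 16.1 to 22.2% and 3.26 to 6.62% in wild-type input and IP. In mutants it had 24.0 to 31.7% in input and 2.34, 100, 5.49 and 7.39% in IP, the 100% of animal 69 resting on 1.15 counts. Hnrnpk, an RNA-binding protein of splicing and translation, had an isoform only 14.6% intronic, at 17.6 to 19.7% and 10.3 to 17.6% in wild type and 10.1 to 22.1% and 7.54 to 18.4% in mutants, overlapping in both. The log2 difference fitted to its counts in mutants was 0.45 (adjusted p = 0.41 by edgeR on pairs with 10 or more counts), while the differences in TPM were -0.47, -0.55, -0.34 and -0.12 in the 4 mutants, so no direction can be given.

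Of 46 meiosis genes 10 held 17 isoforms, 10 of them (58.8%) over 50% intronic and 1 with 10 or more counts in every library, with medians of -2.09, -2.61 and -1.93 in wild type and -2.36, -2.94, -3.67 and -4.32 in mutants. The isoform of Atr, a kinase of DNA damage and meiotic silencing, is 94.6% intronic and keeps the first of 46 introns. It went from 2.14 to 2.94% in wild-type input to 0.662 to 0.688% in IP, and from 1.17 to 4.06% in mutant input to 0, 0, 0 and 0.131% in IP. Adad1, a paralog of Adad2, had an isoform 6.74% intronic at 33.8 to 45.5% in wild-type input, 43.2 to 46% in wild-type IP, 20.9 to 40.3% in mutant input and 25.5 to 53.9% in mutant IP (1.13, adjusted p = 0.23 by edgeR on the same pairs). The Msh4 isoform, of a crossover factor, was at 23.1 to 38.2% and 0 to 6.97% in wild type and 0 to 50.9% and 0 to 15.2% in mutants.

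Of the isoforms with an AT-AC intron, chosen by sequence, those of Tcea2, Ift80 and Rnf123 took small shares and that of E2f6 a large one. The Tcea2 isoform ENSMUST00000129686, of a transcription elongation factor of germ cells, had 1.07 to 1.84% in wild-type input, 0.203 to 0.422% in wild-type IP, 0 to 2.56% in mutant input and 0 in all 4 mutant IP libraries. Ift80, a ciliary transport protein, had 1.40 to 1.73%, 0.139 to 0.198%, 0 to 2.05% and 0.155 to 0.876%. The wild-type input and IP ranges did not overlap in either, and the mutant ranges overlapped in both. The E2f6 isoform, of a repressor of the E2F family, rested on 18.2 to 28.9 counts in wild-type input, where it took 100, 20.3 and 64.3%, and it took 29.2, 4.62 and 31.2% in wild-type IP. In mutants it was listed at 0 except for 16.9 and 31.6 counts in the input of animals 93 and 94 and 118 counts in the IP of animal 93. The Rnf123 isoform, of a ubiquitin ligase, took 1.46, 0.356 and 1.42% in wild-type input and 0, 0 and 3.19% in wild-type IP, and in mutants 0, 0, 4.55 and 0.329% in input and 0 in all 4 IP libraries.

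The mutant and wild-type IP libraries were compared directly, since the rule used neither. The wild-type IP libraries came from the same 3 animals whose inputs chose the isoforms. Other pairs and transcripts were not chosen this way, so an excess of lower isoforms over them cannot be told apart from that choice. Of 2394 isoforms tested against their coding sums, edgeR's quasi-likelihood test called 0 (0.0% of all 8077 pairs), with p under 0.05 before adjustment for 30 isoforms that were higher in mutants (1.25%, against 3.24% of all pairs) and 299 that were lower (12.5%, against 8.06%). DESeq2 called 53 higher (2.21%, against 5.91% of all pairs) and 384 lower (16.0%, against 11.1%). As single transcripts 0 of 2504 isoforms were called (0.0% of all 42721), with p under 0.05 before adjustment for 9 that were higher (0.359%, against 1.36% of all transcripts) and 288 that were lower (11.5%, against 10.2%). DESeq2 called 6 of them higher (0.240%, against 1.07% of all) and 180 lower (7.19%, against 6.53%). On pairs with 10 or more counts in all 7 IP libraries, edgeR again called 0. Before adjustment, 16 of 279 isoforms were higher (5.73%, against 7.51% of all 919 such pairs) and 1 was lower (0.358%, against 0.762%) at p under 0.05. DESeq2 called 3 of the 279 higher (1.075%), against 11 of all 919 pairs. Isoforms above 0 numbered 3028 to 3808 in wild-type IP and 1139 to 1754 in mutant IP, and the part of that gap in the lower values was not tested.

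The isoforms with the smallest p in that comparison each had an adjusted p of 0.303 (edgeR). Higher in mutant IP, relative to the coding sum, were those of Srgap3, with 98.0 to 334 counts in 3 mutants and 0 in animal 12 against 12.0 to 47.8 in wild type, Dpm1, a glycosylation enzyme, with 41.5 to 168 counts against 0 in all 3 wild-type IP libraries, and Wdr4, a tRNA methylation factor, whose own counts overlapped (163 to 352 against 155 to 249) but whose share was 98.7 to 100% against 61.3 to 72.2%. The coding transcripts were listed at 0 in all 4 mutant IP libraries for Srgap3 and in 3 of them for Wdr4. Lower were Wnk1 isoform ENSMUST00000160769, Stag3 isoform ENSMUST00000161113, of the meiotic cohesin subunit, and Ssh2, a cofilin phosphatase. These were listed at 0 in all 4 mutant IP libraries, against 13.1 to 39.0, 37.0 to 88.5 and 13.0 to 61.7 counts in wild type. They passed the filter on low counts through the wild-type libraries alone, and the Dpm1 isoform through the mutant libraries alone. Their direction was therefore set by the filter.

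Other isoform types, taken over all their members, lay closer to their coding sums. Annotated nonsense-mediated decay transcripts that passed the same threshold (1362 with a coding sum) had medians of -0.41 to -0.66 in wild type and -0.52 to -0.94 in mutants, and processed transcripts (1771) -0.68 to -0.85 and -0.71 to -1.08, against -1.53 to -2.01 and -1.31 to -2.49 for the retained-intron isoforms. Each retained-intron median lay below each median of the other 2 types in the same animal. On pairs with 10 or more counts in every mutant library the mutant medians were -0.19 to 0.28 for the 174 retained-intron isoforms, 0.29 to 0.72 for 112 nonsense-mediated decay transcripts and 0.33 to 0.42 for 139 processed transcripts. Whole introns with an in-frame stop codon (1496 isoforms) had medians of -1.66 to -2.19 in wild type and -1.57 to -2.80 in mutants, and the 64 isoforms whose introns held none had -0.66 to -1.13 and -0.35 to -2.53. In mutant animal 93 the order was reversed (-2.28 with and -2.53 without a stop codon). On pairs with 10 or more counts in every mutant library only 24 and 5 isoforms remained, and their order differed between animals. The part of the stop codon was not tested.

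Of 61 genes of the pathways that handle intron-containing RNA, 0 passed edgeR's test between genotypes in total RNA (0.01% of all 19955 features did), with p under 0.05 before adjustment for 7 (8.36% of all), and DESeq2 called 1 (1.74% of all). These features were gene symbols, with their Ensembl transcripts summed, and single entries without a symbol, such as the transcripts assembled from testis. The shares over all features are thus not those of coding genes alone. In mutants, 24 of the 61 were higher in IP than in input (9.31% of all 15480 features were) and 3 were lower (7.70% of all were). Of 15 nonsense-mediated decay factors 6 rose, among them Upf1, the central helicase (log2 fold change 2.05, SE 0.15), and Casc3, an exon junction protein (1.92, SE 0.14), while Smg1, the kinase of UPF1, fell by 0.84. Of 18 export factors 8 rose, such as Ddx39b, an export helicase (1.73), and 2 fell, Nxf3 (-2.23) and Thoc2 (-1.71). Of 19 genes of the nuclear exosome and its adaptors 10 rose and 0 fell, with Exosc7 at 1.53 and Zc3h18 at 1.22, and of 9 minor spliceosome genes 0 passed by edgeR, with p under 0.05 before adjustment for 2 (31.0% of all features). DESeq2 called 3 of these 9 higher (17.6% of all) and 2 lower (29.5% of all). The median log2 fold change was 0.61, 0.66, 0.84 and 0.08 in these 4 lists and -0.48 over all features. In the same fit 5 of 6 early meiotic markers were higher in IP (median 1.36) and 4 of 6 spermatogonia markers (2.64). Of 7 late pachytene markers 2 were higher and 3 lower (-1.06), and of 5 round spermatid markers tested 0 passed (-0.32), where DESeq2 called 3 lower.

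At the threshold, the isoforms of Pold3, with counts of 19, 10 and 32 in wild-type input, and Klc2, with 12.9, 20.4 and 10, were just inside. Those of Rfc3, with 77.7, 9.97 and 39.7, and Ttc3, with 22.1, 16.1 and 9.96, were just outside.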

How the data were processed

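RNA of whole testis lysate (input) and of the anti-HA pull-down (IP) was, for 3 wild-type mice and 4 Adad2 mutants, sequenced as ribosomal RNA-depleted stranded libraries. The authors removed ribosomal RNA reads, trimmed the rest and quantified transcripts with RSEM 1.3.3 on GRCm38, using Ensembl transcripts and transcripts assembled from testis. The values deposited per transcript and library are expected counts, which need not be whole because RSEM splits shared reads between isoforms, and TPM. Of the isoforms' counts above 0, 89.8% differed from a whole number by more than 0.005, so isoform levels of one gene are not independent.

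The isoforms, lists and alternatives were chosen with earlier results of these data known. Transcript types and exons came from GENCODE M21 (133445 of 133849 Ensembl entries matched, and 92 spike-ins were left out). Intronic bases are those outside the exons of every coding transcript of the gene, and a whole intron has at least 30 bases. Sequences were read from the same transcripts, and 1 intron sequence is not reported here.

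Expected counts were rounded and tested with edgeR 4.0.16 (limma 3.58.1, R 4.3.3), TMM factors and filterByExpr. In the pair test each row is an isoform and the coding sum of its gene, with terms for library, animal by class and fraction by class, the last being tested. Libraries of one animal were paired by the animal number in the labels. Single transcripts were tested with the animal as a block, and genotypes within IP without one. Adjusted p-values are Benjamini-Hochberg over all features tested, with 0.05 as the threshold. Alternatives were DESeq2 1.42.0, RLE factors, limma on log2 TPM with 0.1 or 1 added, other filters, a membership threshold of 50 counts, no block, and leaving out libraries. Animals 12 and 69 were left out together, and the fits on pairs with 10 counts in every library were varied, after seeing the data. Scripts were tested on simulated counts, and intervals and p-values cover these animals only.

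Named isoforms were the 6 of highest wild-type input count (1 per gene), the called ones of the mutant pair fit or, where fewer than 3 passed, the 3 of smallest p per direction, the same within IP, the up to 4 of highest count among splicing regulators and meiosis genes, and 2 on each side of the threshold. Isoforms called with the filter of 10 counts or as single transcripts were added by their calls, and those with AT-AC introns by sequence.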

Additional observations from a re-analysis of the deposited data

Results flagged for a closer look

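In 92 groups of 4 mutant libraries, the share of a named isoform in isoform plus coding TPM was searched for a library standing apart from the other 3, which chance gives in about 1 of 20 groups. There were 17 such libraries. Where the other 3 libraries were all listed at 0 or at 100%, as for Srsf5 and Wdr4 in IP, any other value stands apart. For such groups the rate of 1 in 20 does not apply. In mutant input, animal 69 stood apart in Rpgrip1 (93.6%), Atr (4.06%), Pold3 (40.6%) and Mtr (68.0%), animal 93 in Pou6f1 (93.6%) and Rnf123 (4.55%), and animal 94 in Fyttd1 isoform ENSMUST00000135854 (7.80%). In mutant IP, animal 94 stood apart in Wdr4 (98.7%), Srsf5 (0.682%), Atr (0.131%), Stag3 isoform ENSMUST00000159483 (1.91%) and Pold3 (7.16%), and animal 12 in Ythdc1 (54.3%) and Msh4 (15.2%). In the same fraction animal 93 stood apart in Tcp1 isoform ENSMUST00000138709 (1.97%) and Hnrnpl (0.962%), and animal 69 in Rbm25 (100%), which rested on 1.15 counts.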

How the results depend on the processing

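The isoform against coding test within mutants called 0 isoforms with the usual filter, and 689 by DESeq2, 36 on pairs with 10 or more counts in every library, 61 by DESeq2 on those pairs (a setting added after seeing the data), 5 by limma with 1 TPM added, 70 without animals 12 and 69 and 1 to 37 without single animals. By DESeq2 on the pairs with 10 counts, 37 isoforms were higher and 24 lower of 174, against 94 and 44 of all 443 pairs. Without animals 12 and 69, 11 were higher and 59 lower of 3864, against 75 and 116 of all 11510 pairs. By limma with 1 TPM added, 2 were higher and 3 lower of 2214, against 7 and 3 of all 6149 pairs. The pairs with 10 counts need that count in IP as well, which keeps fewer isoforms low in IP. The median log2 difference of the isoforms, -2.89, became 0.25 on those pairs by either tool, -1.77 and -1.004 by limma with 0.1 and 1 TPM added, -4.07 without animals 12 and 69 and -3.39 to -2.71 without single animals. The wild-type median, a description, was -2.40 and became -0.81 on those pairs by either tool, -1.92 and -1.13 by limma, -1.95 with a membership threshold of 50 counts and -2.58 to -2.07 without single animals.

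The median difference between mutant and wild-type IP/input, also a description, was -1.04, and became -0.45 by DESeq2, 0.072 and 0.071 on pairs with 10 counts by edgeR and DESeq2 and -0.020 and -0.019 by limma with 0.1 and 1 TPM added. Within IP DESeq2 called 437 pairs (3 when run on pairs with 10 counts) and 186 single transcripts, against 0 each by edgeR. In input it called 1 pathway gene against 0. The 8 single-transcript calls in mutants became 814 by DESeq2, 69 with 10 counts in every library, 38 without a filter, 1 without animals 12 and 69 and 7 to 9 without single animals. By DESeq2 102 single isoforms were higher and 712 lower of 2353, against 2658 and 7001 of all 34124 transcripts. With 10 counts in every library 42 were higher and 27 lower of 235, against 1298 and 1392 of all 7821. Without a filter 18 were higher and 20 lower of 4644, against 741 and 949 of all 108254. The 36 calls on pairs with 10 counts became 61 by DESeq2 and 115 without animals 12 and 69, with the shares over all pairs given above. They became 14 to 50 without single animals, 16 without animal 93 and 14 without animal 94.

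Leaving out the block of paired libraries of an animal changed the calls to 97 single transcripts in mutants, and left 0 in mutant pairs and 35 in those with 10 counts. Of the single transcripts without the block, 15 isoforms were higher and 82 lower of 2353, against 875 and 1049 of all 34124. Of the pairs with 10 counts without it, 19 were higher and 16 lower of 174, against 46 and 24 of all 443. Single isoforms changed sign in mutants as follows. Hnrnpk was at -0.37 and -0.40 by limma, Rfc3 at -3.22 without animals 12 and 69, and Ift80 at -0.91 and -1.59 by limma, -0.37 without the block of paired libraries, -2.25 without animals 12 and 69 and -1.66 to 1.71 without single animals, against 0.17 with all of them. The causes were not tested. Splitting of reads between isoforms, the low detection in mutant libraries and 3 or 4 animals a group limit what these counts can show.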
